A study of Mus musculus with 9 samples.

Results

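The clustered histone genes are the genes whose symbols begin with Hist1h, Hist2h, Hist3h or Hist4h, and every such row of the count table was taken. There were 68 of them among 17769 genes, with 5 encoding linker histone H1, 19 H2A, 19 H2B, 12 H3 and 13 H4. On GRCm38, 54 lie on chromosome 13, 10 on chromosome 3, 3 on chromosome 11 and 1 on chromosome 6. RNA came from MEP, a common short form for megakaryocyte-erythroid progenitors, which had been sorted from mouse bone marrow and gave 9 libraries, 3 per group. All mice were C57BL/6N, and the labels give 5 tamoxifen injections for all groups. The VF group carried SclCre with V617F and was sampled 12 weeks after induction. The E12 group carried SclCre with the exon 12 mutation and was sampled after 6 weeks. The WT group was sampled at 12 weeks, and the labels give it no SclCre. V617F and exon 12 mutations activate Jak2, the kinase that signals for the erythropoietin and thrombopoietin receptors. SclCre is a Cre recombinase named for Scl, a gene of blood stem and progenitor cells, and the share of sorted cells that had recombined is not given. The labels do not say whether replicates came from separate mice, so the p-values measure only the spread between these libraries. The WT libraries carry sequencing facility numbers from another series than those of VF and E12, so genotype and that series cannot be told apart.

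DNA is wound around a core of H2A, H2B, H3 and H4, and H1 binds the DNA that enters and leaves it. A cell makes most of this protein during S phase from the clustered genes, many near-identical copies that are switched on together at the start of replication. Their mRNAs are unusual in ending not in a poly(A) tail but in a short stem-loop that is bound by the protein Slbp. Cells that leave the cycle rely on single genes elsewhere, such as H2afz, H3f3a, H3f3b and H1f0, whose mRNAs carry poly(A) tails and which are made outside S phase too. Some clustered genes also give polyadenylated transcripts, which are known from differentiating and non-dividing cells. Smart-Seq2 copies RNA by way of the poly(A) tail, so it may catch the stem-loop form poorly, and the fraction of each form in these libraries was not measured.

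The stem-loop was searched as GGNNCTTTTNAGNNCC on the transcript strand of GENCODE M21 transcripts, and 43 of the 68 genes had it in at least 1 transcript. It stood within 100 bases of the transcript's end in 22 genes and further inside in 21. The sites below are examples from each type and show how H4 differs from the others in the stem. They are the match nearest the end of a transcript with 5 flanking bases on either side where the transcript is long enough, 5′ to 3′, with the stem-loop in capitals.
Hist1h1c: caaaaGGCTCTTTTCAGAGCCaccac
Hist1h2ao: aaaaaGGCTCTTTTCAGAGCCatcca
Hist1h2bm: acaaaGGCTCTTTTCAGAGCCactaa
Hist2h3c1: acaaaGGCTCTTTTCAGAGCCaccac
Hist1h4d: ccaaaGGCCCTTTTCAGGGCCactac
Hist1h4i: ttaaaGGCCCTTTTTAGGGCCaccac
The core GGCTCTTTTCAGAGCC was shared by 3 H1, 10 H2A, 8 H2B and 5 H3 genes, whereas 7 H4 genes had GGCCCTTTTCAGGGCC. A poly(A) signal, AATAAA, started in the last 50 bases of a transcript in 14 genes, 10 of which also had the stem-loop. Hist2h2be was 1 of the 4 genes with the signal and no match to the stem-loop pattern. A missing match says only that the letters are not in these transcript models. Over whole transcripts, the median gene shared 49.4% of its 50-base windows with another clustered histone gene, and 32 genes shared more than 50%. Reads from such stretches could have been dropped or split by the authors' counting, and values of single genes are uncertain to that extent.

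Clustered histone genes took a small share of every library. The share was 0.144%, 0.126% and 0.0973% of all counts in VF 1, 2 and 3, 0.105%, 0.108% and 0.159% in E12 1, 2 and 5, and 0.299%, 0.15% and 0.133% in WT 50, 51 and 52. WT 50 stood apart, and the other WT libraries lay within or near the range of the mutants, so the groups overlapped. H2A held 74.7% to 77.3% of these counts in VF, 74.6% to 80.5% in E12 and 83.1% to 83.6% in WT, and 2 neighbouring genes, Hist1h2ao and Hist1h2ap, held 57.6% to 65.3% in every library. H3 held 5.99% to 6.87% in VF, 6.79% to 9.84% in E12 and 1.94% to 4.11% in WT. So the make-up differed between mutant and WT libraries without overlap for both types, with more H3 and less H2A in the mutants, as shares of each library's clustered histone counts. By plain library totals, the summed H3 CPM (counts over a common library size, set at 1e6) were 86.0, 85.7 and 66.8 in VF, 87.8, 106 and 108 in E12 and 58.0, 40.4 and 54.7 in WT. With the scaling factors used for the tests the H3 sums were 68.1, 68.2 and 52.1 in VF, 80.5, 89.3 and 95.3 in E12 and 127, 48.1 and 63.0 in WT, so WT overlapped both mutants and E12 lay above VF. These shares and sums hold all rows, including the pairs of rows described below that share reads. With such rows counted once, VF 3 lay below WT 50 in the H3 sum by plain totals, so VF overlapped WT. E12 stayed above WT on that count, with a lowest value of 49.4 against 39.8 in WT 50.

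**Figure D1:**
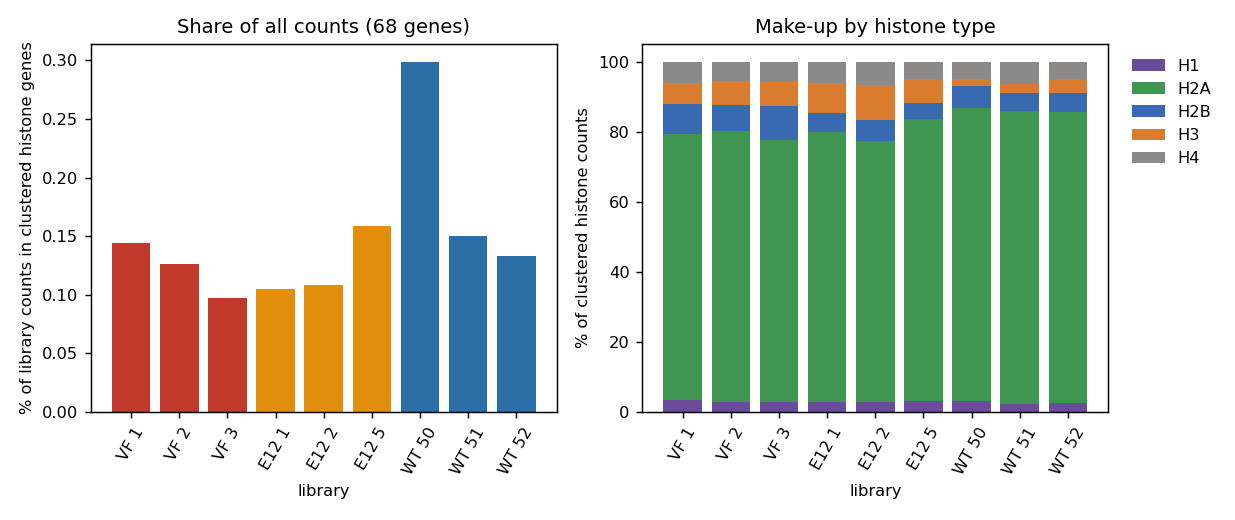
Share of each library's counts in the 68 clustered histone genes (left, bars, percent) and the make-up of those counts by histone type (right, stacked bars, percent), for the 9 libraries, with no error bars because each bar is 1 library. WT 50 reaches 0.299% while the other 8 libraries lie between 0.0973% and 0.159%, and H2A holds most of the counts in all of them.

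Library totals were 19256431 to 39736096 counts. WT 50 also stood apart in the kinds of genes it held, with 27.9% of its counts in genes under 1 kb against 14.1% and 11.2% in WT 51 and 52, 8.24% to 8.97% in VF and 6.92% to 8.79% in E12. Its TMM factor, the correction of library size for composition, was 0.456 against 0.841 and 0.869 in the other WT libraries, 1.26 to 1.28 in VF and 1.09 to 1.19 in E12. CPM below use these factors unless stated. With CPM taken over the genes under 1 kb alone, the clustered histone genes summed to 16000, 14700 and 11800 in VF, 13800, 15600 and 18100 in E12 and 10700, 10600 and 11900 in WT, so on that scale WT was not the highest group. The sorted populations differed too. Summed over 6 erythroid markers, CPM were 1240 to 1660 in VF, 6570 to 9010 in E12 and 15900 to 21600 in WT, and over 6 megakaryocyte markers 1610 to 2150, 276 to 353 and 44.6 to 146. Over 5 stem and multipotent progenitor markers they were 1050 to 1100 in VF, 216 to 420 in E12 and 13.1 to 21.2 in WT, where Mecom was at 0 in all libraries, as was the megakaryocyte gene Itgb3. Over 6 neutrophil and monocyte markers they were 6100 to 11700, 1110 to 1960 and 132 to 539. Over 6 B cell markers they were 3770 in WT 50, 802 and 328 in WT 51 and 52, 604 in E12 5 and 27.9 to 252 in the other 5 libraries, so the library with the highest clustered histone share within WT and within E12 was also highest in B cell markers. Within VF it was the reverse, with VF 3 highest in B cell markers at 252 and lowest in that share. Over 4 T and NK cell markers they were 482 to 549 in VF, 103 to 241 in E12 and 122 to 1120 in WT. Single markers did not all follow these sums. Of the 6 erythroid markers, 5 were called lower and 0 higher in VF against WT, and 2 lower and 1 higher in E12 against WT. In a sorted bulk sample, fewer cells in S phase and less histone mRNA per cell cannot be told apart, and the part of these populations and of gene length in the results below was not tested.

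Of the 68 genes, 63 passed the filter on low counts and were tested. In VF against WT, 18 were lower and 1 was higher at an adjusted p under 0.05, which is 28.6% and 1.59% of those tested. Over all 13608 genes tested, 20.9% were lower and 27.7% higher. The median log2 fold change was -1.54 for the clustered histone genes and 0.36 for all genes, and 59 of 63 values were below 0. By type, the lower calls in VF were 1 of 5 for H1, 8 of 18 for H2A, 4 of 18 for H2B, 0 of 11 for H3 and 5 of 11 for H4. In E12 against WT, 19 were lower and 1 was higher, against 18.1% lower and 23.9% higher of all genes, with medians of -1.56 and 0.36. In E12 against VF, 0 were called in either direction by edgeR, DESeq2 or limma-voom, and 0 had an unadjusted p under 0.05, while 2.19% of all genes were higher and 1.02% lower. The median there was 0.09, against -0.05 for all genes. Counted by libraries that do not overlap, 26 of the 63 lay below WT and 2 above in VF, where 23.0% of all genes lay below and 39.7% above. For E12 against WT the counts were 27 below and 2 above, beside 20.3% and 33.0% of all genes. Between E12 and VF, 4 lay above and 3 below, beside 28.2% and 31.3% of all genes. The comparisons with WT share the WT libraries, so their likeness is no second measurement.

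**Figure D2:**
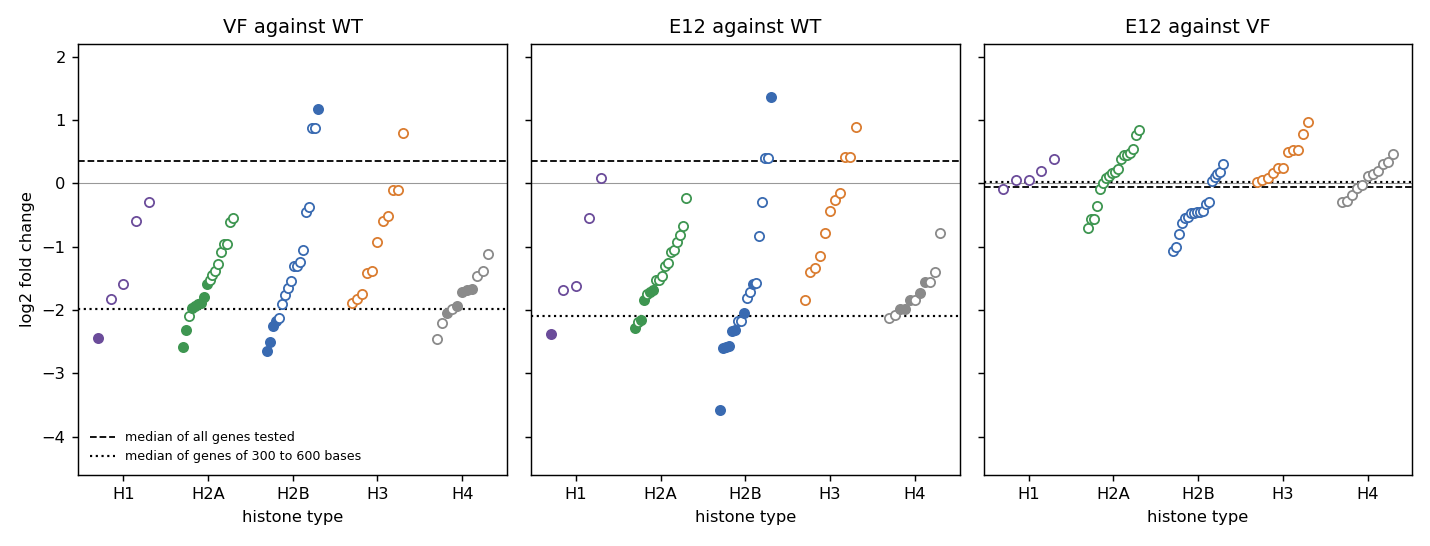
Log2 fold change (vertical axis) of each of the 63 tested genes, by histone type, for the 3 comparisons, as 1 point per gene. Filled points passed an adjusted p of 0.05, the dashed line is the median of all genes tested (0.36, 0.36 and -0.05) and the dotted line that of genes of 300 to 600 bases (-1.98, -2.09 and 0.02), and most clustered histone genes lie between these lines in both comparisons with WT.

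Most of these genes are short, and short genes were lower in the mutants in general. The 53 tested clustered histone genes under 1 kb had a median of -1.66 in VF against WT, and the 10 of 1 kb or more had -0.33. All 1228 tested genes under 1 kb had a median of -1.77, and 51.5% of them were lower. Of 267 genes of 300 to 600 bases, 56.9% were lower in VF and 58.4% in E12, against 28.6% and 30.2% of the clustered histone genes. With an offset that removes the trend with gene length, the median of the clustered histone genes was -0.16 in VF, with 6 lower and 0 higher, beside -0.54 for all genes. In E12 it was -0.04 with 2 lower and 6 higher, beside -0.39. With plain library totals and no scaling factors, chosen as an alternative after the data were seen, it was -0.41 with 2 lower and 6 higher in VF and -0.65 with 5 lower and 4 higher in E12, beside 1.15 and 0.97 for all genes. Without WT 50 the medians were -0.62 and -0.61, with 16 lower and 1 higher in VF and 15 lower and 4 higher in E12. Set against the median of all genes, the family was lower in the main fit and without scaling factors and higher with the gene length offset. Its direction as a whole thus depended on that setting. The medians of all genes without WT 50 are not given here, so that fit is not set against them. Single calls also rested on few libraries. Of the 19 calls in VF, 3 held with any 1 of the 9 libraries left out, those of Hist1h2ak, Hist1h2bm and Hist1h4i. Of the 20 calls in E12, 2 held, those of Hist1h2bm and Hist3h2a. Without VF 1, VF 2 or VF 3 the lower calls in VF numbered 9, 3 and 3. Without E12 1, E12 2 or E12 5 those in E12 numbered 3, 5 and 4, and without VF 1, 2 or 3 they numbered 9 each. Without WT 51 they numbered 34 in VF and 33 in E12, and without WT 52 41 and 40.

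**Figure D3:**
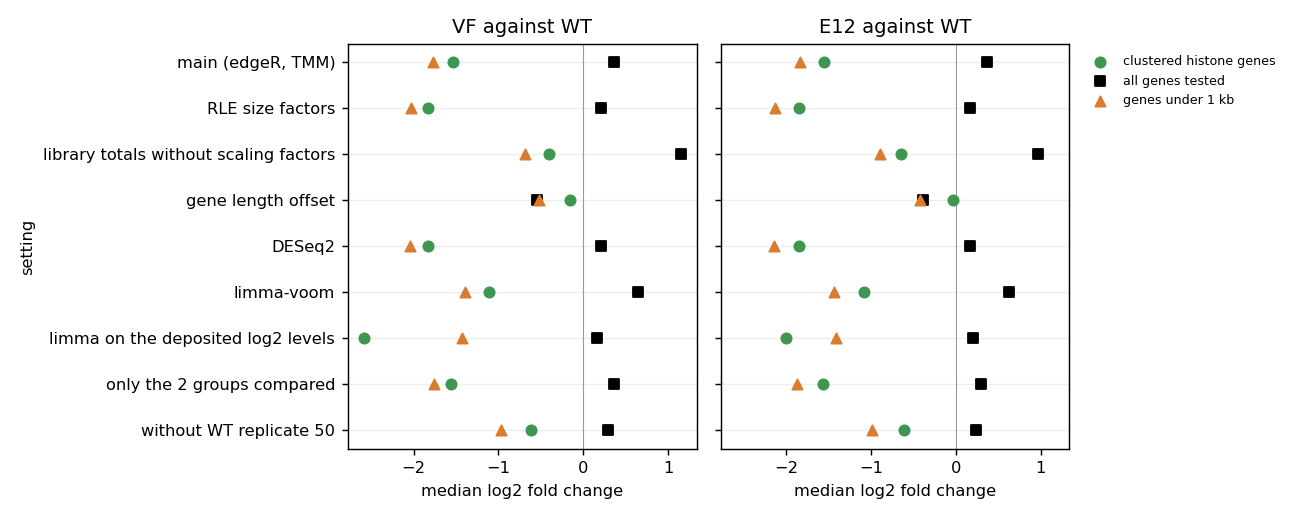
Median log2 fold change (horizontal axis) of the clustered histone genes (circles), of all genes tested (squares) and of genes under 1 kb (triangles) under 9 settings of the analysis (rows), for VF and E12 against WT. The circles stay near the triangles under most settings and move from -1.54 to -0.16 in VF and from -1.56 to -0.04 in E12 with the gene length offset.

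Among the linker histones, Hist1h1b, which RefSeq lists as H1f5, fell in both mutants. It measured 15.4, 12.6 and 8.96 CPM in VF, 10.5, 10.6 and 17.5 in E12 and 154, 25.3 and 20.8 in WT, in the order of the replicate numbers, as in all lists below. All 6 mutant libraries lay below the 3 WT libraries, and WT 50 was far above the rest. The log2 fold change was -2.44 ± 0.73 (SE, adjusted p = 0.022) in VF and -2.38 ± 0.73 (SE, adjusted p = 0.028) in E12. Without WT 50 it was -1.04 and -0.98, with adjusted p of 0.027 and 0.039, and the calls were lost without any 1 library of the mutant compared. With the gene length offset it was -1.03 (adjusted p = 0.036) in VF and -0.79 (adjusted p = 0.11) in E12. Both calls were also lost without scaling factors, with limma-voom and in fits of 2 groups. The other linker genes passed no test. Hist1h1c, which has both a stem-loop and a poly(A) signal, measured 10.3, 7.38 and 6.08 CPM in VF, 7.65, 6.29 and 10.7 in E12 and 16.5, 10.7 and 8.57 in WT. Hist1h1e measured 8.14, 5.48 and 4.26 CPM in VF, 5.62, 6.48 and 11.2 in E12 and 18.1, 2.74 and 1.22 in WT, so the mutants lay above WT 51 and 52 and below WT 50. Mean CPM over the 9 libraries were 1.51 for Hist1h1a and 4.58 for Hist1h1d. Their log2 fold changes were -1.82 for Hist1h1a, -0.59 for Hist1h1c, -1.59 for Hist1h1d and -0.29 for Hist1h1e in VF.

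Shares within H1 do not depend on how libraries are scaled. Hist1h1b held 39.8, 44.0 and 40.9% in VF, 39.9, 40.4 and 39.2 in E12 and 73.5, 58.5 and 53.7 in WT of the clustered H1 counts. Hist1h1e held 21.1, 19.1 and 19.4% in VF, 21.4, 24.8 and 25 in E12 and 8.60, 6.34 and 3.17 in WT, the reverse order, and neither share overlapped between mutants and WT. In the mutants the H1 pool of the cluster thus held less Hist1h1b and more Hist1h1e in every library. The replacement linker gene H1f0, known from non-dividing cells, lies outside the clusters. It rose in VF and in E12, with 387, 276 and 300 CPM in VF, 164, 99.0 and 111 in E12 and 61.9, 65.2 and 85.0 in WT. Its log2 fold change was 2.18 ± 0.29 (SE, adjusted p = 0.00072) in VF and 0.82 ± 0.28 (SE, adjusted p = 0.042) in E12, and E12 lay below VF by -1.37 ± 0.28 (SE, adjusted p = 0.038). Of the counts in H1f0 and the 5 clustered H1 genes together, H1f0 held 90.9%, 90.6% and 93.2% in VF, 86.2%, 79.1% and 71.3% in E12 and 22.8%, 60.1% and 68.7% in WT, 3 ranges that did not overlap. These are shares of counts, and H1f0 has the longer gene.

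H2A was the most abundant type, and 8 of its 18 tested genes were lower in VF and 5 in E12, with 0 higher. Hist1h2ao at chr13:21810367-21810918 and Hist1h2ap at chr13:21833024-21833475 had the highest counts. Hist1h2ao measured 385, 352 and 253 CPM in VF, 340, 308 and 513 in E12 and 2460, 665 and 584 in WT. Hist1h2ap followed it in each library, with 290, 261 and 185 CPM in VF, 243, 218 and 373 in E12 and 1820, 492 and 414 in WT. The ratio of their counts was 1.33 to 1.41 in the 9 libraries, they share most of their sequence, and the deposited length of each is 2 times its RefSeq span, so the rows may hold the same reads and count here as uncertain. Hist1h2ao changed by -1.91 ± 0.56 (SE, adjusted p = 0.02) in VF and -1.68 ± 0.55 (SE, adjusted p = 0.037) in E12, and Hist1h2ap by -1.89 ± 0.57 (SE, adjusted p = 0.022) and -1.71 ± 0.56 (SE, adjusted p = 0.036). Without WT 50 the changes were -1.06 and -0.82 for Hist1h2ao and -1.02 and -0.84 for Hist1h2ap. With the gene length offset the VF calls held, at -1.11 and -0.82, and the E12 calls did not, at -0.70 and -0.46. That offset used the deposited lengths, so for these rows it cannot show that the calls survive a correction for length. Hist1h4m and Hist1h4n, with near-equal counts and deposited lengths of 405 and 732 bases, came out at -0.35 and -0.54 in VF under it. Neither Hist1h2ao nor Hist1h2ap was called with limma on the deposited levels. Both of these genes lost the call with any 1 library of the mutant compared left out. As a share of H2A counts, with Hist1h2ap left out, Hist1h2ao held 66.7% to 69.3% in VF, 67.5% to 68.7% in E12 and 67.1% to 68.2% in WT, so its weight within H2A was alike in the groups.

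Hist1h2ak fell in both mutants. It measured 58.6, 50 and 40.2 CPM in VF, 52.4, 44.3 and 69.2 in E12 and 496, 130 and 113 in WT. Even the lowest WT library was above the highest mutant library. The log2 fold change was -2.31 ± 0.55 (SE, adjusted p = 0.0083) in VF and -2.16 ± 0.55 (SE, adjusted p = 0.013) in E12, and without WT 50 it was -1.43 and -1.27. With the gene length offset it was -0.73 (adjusted p = 0.0073) in VF and -0.40 (adjusted p = 0.10) in E12. The E12 call was also lost without E12 2, at an adjusted p of 0.058. Within H2A, Hist1h2ak held 10.3, 9.84 and 10.6% in VF, 10.6, 9.72 and 9.21 in E12 and 13.6, 13.1 and 13.1 in WT, so its fall was larger than that of the type.

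Hist1h2ac measured 38.6, 36.3 and 28.6 CPM in VF, 32.4, 32.6 and 47.4 in E12 and 272, 78.6 and 53.4 in WT. It fell by 1.96 ± 0.55 (SE, adjusted p = 0.017) on the log2 scale in VF and by 1.84 ± 0.55 (SE, adjusted p = 0.025) in E12. Hist1h2ab measured 30.6, 26.3 and 19.6 CPM in VF, 28.9, 28.5 and 54.5 in E12 and 165, 50.4 and 50.3 in WT, and E12 5 overlapped the WT libraries. Its log2 fold change was -1.80 ± 0.51 (SE, adjusted p = 0.017) in VF and -1.25 ± 0.50 (SE, adjusted p = 0.072) in E12. Hist3h2a, the H2A gene of the small cluster on chromosome 11, measured 11.3, 10.1 and 10.4 CPM in VF, 4.26, 6.36 and 8.86 in E12 and 58.0, 18.7 and 18.8 in WT. It changed by -2.29 ± 0.51 (SE, adjusted p = 0.0084) in E12, and this call held with each library left out but not with the gene length offset, at -0.68 (adjusted p = 0.14). In VF the change was -1.59 ± 0.50 (SE, adjusted p = 0.027). Both other calls in VF were of genes with lower counts. Hist1h2ad measured 5.25, 4.10 and 3.0 CPM in VF, 4.29, 4.72 and 7.90 in E12 and 30.9, 9.13 and 7.07 in WT and changed by -1.93 ± 0.61 (SE, adjusted p = 0.028) in VF. Hist1h2af measured 0.450, 0.335 and 0.243 CPM in VF, 0.312, 0.762 and 0.782 in E12 and 4.42, 0.934 and 0.918 in WT and changed by -2.58 ± 0.88 (SE, adjusted p = 0.036) in VF. All these calls except that of Hist3h2a in E12 were lost with at least 1 mutant library left out, VF 2 or VF 3 for VF and E12 1, 2 or 5 for E12, and that of Hist1h2af also without WT 50, E12 2 or E12 5. Without WT 50 the changes were smaller, in VF -1.08 for Hist1h2ac, -1.11 for Hist1h2ab, -0.96 for Hist3h2a, -1.12 for Hist1h2ad and -1.55 for Hist1h2af, and in E12 -0.96 for Hist1h2ac and -1.65 for Hist3h2a. With the gene length offset none of these genes was called, and the changes in VF were -0.32, -0.32, -0.13, -0.38 and -0.92 in the same order, and in E12 -0.04 for Hist1h2ac.

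The other H2A genes passed no test. Mean CPM over the 9 libraries were 18.4 for Hist1h2ae, 2.66 for Hist1h2ag, 0.668 for Hist1h2ah, 2.05 for Hist1h2ai, 3.95 for Hist1h2al and 5.37 for Hist1h2an. They were 6.15 for Hist2h2aa1, 6.17 for Hist2h2aa2, 1.01 for Hist2h2ab and 6.59 for Hist2h2ac. Their log2 fold changes in VF ran from -2.10 for Hist1h2ai to -0.55 for Hist1h2al, a row that RefSeq lists as a transcribed pseudogene and that lies apart from the other chromosome 13 genes. Hist1h2ae, which has both the stem-loop and a poly(A) signal, held more weight within H2A in the mutants. It was 2.17, 1.88 and 2.29% in VF, 3.46, 3.43 and 2.54 in E12 and 1.57, 1.48 and 1.35 in WT of H2A counts, and the 3 groups did not overlap. Hist2h2aa1 and Hist2h2aa2 differed by at most 3 counts in any library and carry the same reads.

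H2B had the widest range of changes, with 4 of 18 tested genes lower and 1 higher in VF and 8 lower and 1 higher in E12. Hist1h2bm at chr13:21722044-21722526 had the largest fall of all clustered histone genes in E12. It measured 5.78, 3.54 and 3.97 CPM in VF, 2.15, 1.94 and 2.26 in E12 and 51.4, 15.2 and 9.42 in WT, and the E12 libraries lay below the VF libraries, which lay below WT. The log2 fold change was -2.51 ± 0.62 (SE, adjusted p = 0.0096) in VF and -3.58 ± 0.65 (SE, adjusted p = 0.0042) in E12. It was called under every alternative run for these comparisons, at -1.63 and -2.69 without WT 50, -0.86 and -1.74 with the gene length offset and -1.40 and -2.62 without scaling factors. Within H2B, Hist1h2bm held 6.10, 4.82 and 5.64% in VF, 4.2, 3.71 and 3.57 in E12 and 12.5, 16.7 and 11.5 in WT. Between E12 and VF the change was -1.06 ± 0.60 (SE, adjusted p = 0.41), so the step from VF to E12 did not pass although the libraries did not overlap.

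Hist1h2bj, Hist1h2bk and Hist1h2bp also fell in both mutants, all at low counts. Hist1h2bj measured 5.59, 3.13 and 2.35 CPM in VF, 2.85, 2.51 and 2.87 in E12 and 34.0, 9.81 and 6.09 in WT, with changes of -2.17 ± 0.67 (SE, adjusted p = 0.025) in VF and -2.6 ± 0.68 (SE, adjusted p = 0.015) in E12. Hist1h2bk measured 0.825, 0.745 and 0.770 CPM in VF, 0.508, 0.571 and 0.782 in E12 and 6.57, 2.09 and 2.58 in WT, with changes of -2.25 ± 0.67 (SE, adjusted p = 0.02) and -2.58 ± 0.68 (SE, adjusted p = 0.015). Hist1h2bp measured 0.638, 0.335 and 0.284 CPM in VF, 0.586, 0.457 and 0.521 in E12 and 4.64, 2.12 and 1.19 in WT, with changes of -2.64 ± 0.76 (SE, adjusted p = 0.018) and -2.33 ± 0.75 (SE, adjusted p = 0.033). For these genes every mutant library was below every WT library. Each call was lost without VF 2 or VF 3 in VF and without E12 1 or E12 2 in E12, that of Hist1h2bp in E12 also without any 1 VF library or without WT 50, and the gene length offset brought the adjusted p to between 0.088 and 0.30 in both mutants, with changes of -0.55, -0.87 and -1.37 in VF and -0.79, -1.03 and -0.85 in E12. Without WT 50 the changes were -1.26, -1.69 and -2.12 in VF and -1.69, -2.02 and -1.82 in E12.

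Hist1h2bc was the most abundant H2B gene and was called lower in E12. It measured 50.1, 34.9 and 38.6 CPM in VF, 21.7, 21 and 28.2 in E12 and 224, 33.6 and 35.2 in WT. VF overlapped WT and E12 did not. The change was -2.04 ± 0.68 (SE, adjusted p = 0.038) in E12 and -1.24 ± 0.66 (SE, adjusted p = 0.15) in VF, and the difference between E12 and VF was -0.80 ± 0.66 (SE, adjusted p = 0.59). Without WT 50 the E12 change was -0.67 (adjusted p = 0.031), and with the gene length offset it was -0.43 (adjusted p = 0.29). The E12 call was also lost under DESeq2 and limma-voom and without any 1 VF or E12 library. Also called in E12 were Hist1h2be at -1.59 (adjusted p = 0.048), Hist2h2bb at -2.31 (adjusted p = 0.03) and the pseudogene Hist3h2bb-ps at -2.56 (adjusted p = 0.049). Hist1h2be measured 3.30, 3.35 and 2.55 CPM in VF, 2.07, 2.74 and 2.74 in E12 and 13.8, 4.2 and 4.73 in WT. Hist2h2bb measured 1.46, 1.64 and 0.933 CPM in VF, 0.390, 1.22 and 0.391 in E12 and 4.64, 3.33 and 2.01 in WT. Hist3h2bb-ps measured 0.488, 0.522 and 0.770 CPM in VF, 0.312, 0.381 and 0.608 in E12 and 5.96, 0.810 and 1.02 in WT. These 3 lay below WT in all E12 libraries, and their calls were lost without any 1 VF library, without E12 1 or without E12 5, and those of Hist1h2be and Hist3h2bb-ps without WT 50 as well, at -0.95 and -1.18. With the gene length offset Hist1h2be was at -2.51 (adjusted p = 0.018), and Hist2h2bb and Hist3h2bb-ps were not called, at -0.83 and -0.59.

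Hist2h2be at chr3:96221072-96223738 was the only clustered histone gene called higher, and it was higher in both mutants. It measured 9.56, 9.95 and 8.96 CPM in VF, 10.1, 11.8 and 10.4 in E12 and 6.18, 2.83 and 3.60 in WT, and all mutant libraries lay above all WT libraries. The log2 fold change was 1.18 ± 0.39 (SE, adjusted p = 0.033) in VF and 1.36 ± 0.39 (SE, adjusted p = 0.023) in E12. Its deposited length, 2667 bases, is the longest of any clustered histone gene after the rows Hist1h2al, Hist1h2bq and Hist1h2br, its transcript ends with a poly(A) signal, and none of its 50-base windows occurs in another clustered histone gene. The call needed particular settings. It was lost with RLE factors, with no filter on low counts, with the deposited levels and in fits of 2 groups, and with the gene length offset the change was 0.10 (adjusted p = 0.87) in VF and 0.41 (adjusted p = 0.53) in E12. It was also lost in VF when any 1 of the libraries other than WT 50 was left out, and in E12 without E12 1, 2 or 5 or WT 51 or 52. Without WT 50 it was 1.44 and 1.62. Within H2B, a share free of scaling though not of gene length, Hist2h2be held 10.1, 13.5 and 12.7% in VF, 19.7, 22.6 and 16.4 in E12 and 1.5, 3.12 and 4.40 in WT, and the 3 groups did not overlap.

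Hist1h2bq and Hist1h2br have the same count in 9 of 9 libraries and stand for 1 measurement. They measured 2.55, 1.68 and 2.6 CPM in VF, 1.60, 1.45 and 1.87 in E12 and 2.10, 0.747 and 0.884 in WT. The values were 0.88 ± 0.63 (SE, adjusted p = 0.27) in VF and 0.40 ± 0.62 (SE, adjusted p = 0.63) in E12, and neither passed. Their length is 4350 bases, and they have the poly(A) signal and no match to the stem-loop. The share of H2B was 2.70, 2.28 and 3.68% in VF, 3.13, 2.77 and 2.95 in E12 and 0.510, 0.822 and 1.08 in WT, above WT in all mutant libraries. For the other H2B genes, mean CPM over the 9 libraries were 0.916 for Hist1h2bb, 1.31 for Hist1h2bf, 7.25 for Hist1h2bg, 0.958 for Hist1h2bh, 1.29 for Hist1h2bl, 1.08 for Hist1h2bn and 4.51 for Hist3h2ba, and none was called.

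No H3 gene was called in either mutant, with 0 of 11 by edgeR and 1 and 0 at an unadjusted p under 0.05 in VF and E12. The rows Hist2h3c1 and Hist2h3c2 have equal counts in 9 of 9 libraries, 2 times the RefSeq span as length, and 1 measurement between them. They measured 28.5, 27.7 and 22.5 CPM in VF, 35.2, 37.9 and 39.7 in E12 and 39.9, 19.6 and 24.8 in WT, so WT overlapped both mutants while all E12 libraries lay above all VF libraries, with changes of -0.10 ± 0.29 (SE, adjusted p = 0.80) in VF and 0.42 ± 0.29 (SE, adjusted p = 0.27) in E12. With 1 of the rows left out, Hist2h3c1 held 72.0, 68.3 and 75.7% in VF, 77.5, 73.6 and 71.4 in E12 and 45.6, 68.6 and 65.1 in WT of H3 counts, and so the counts of this type were mainly those of 1 gene pair. Hist2h3b measured 1.99, 1.94 and 1.5 CPM in VF, 1.48, 2.32 and 1.95 in E12 and 1.21, 0.872 and 1.02 in WT, with all mutant libraries above WT. Its values of 0.80 ± 0.56 (SE, adjusted p = 0.26) and 0.89 ± 0.56 (SE, adjusted p = 0.23) did not pass. The Hist1 genes of H3 had low counts, with mean CPM over the 9 libraries of 1.79 for Hist1h3a, 1.05 for Hist1h3c, 1.05 for Hist1h3d, 2.10 for Hist1h3e, 1.52 for Hist1h3f, 1.97 for Hist1h3g, 2.13 for Hist1h3h and 1.85 for Hist1h3i. Their log2 fold changes in VF lay between -1.89 for Hist1h3i and -0.52 for Hist1h3f. With the gene length offset the median of H3 was 0.23 in VF and 0.93 in E12, where 3 of 11 were higher.

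Of 11 tested H4 genes, 5 were lower in each mutant and 0 higher, and 2 of the 5 rows, Hist1h4m and Hist1h4n, hold 1 measurement. Hist1h4i at chr13:22040960-22041362 measured 12.1, 8.76 and 7.26 CPM in VF, 13.5, 11.2 and 14.3 in E12 and 72.1, 26.4 and 17.1 in WT. The mutants lay below WT in every library, and the change was -2.04 ± 0.52 (SE, adjusted p = 0.011) in VF and -1.56 ± 0.51 (SE, adjusted p = 0.035) in E12. The call in VF held with each library left out, at an adjusted p of up to 0.048, and that in E12 did not hold without any 1 mutant library. Without WT 50 its change was -1.36 and -0.89. Under the gene length offset its change was -0.58 (adjusted p = 0.087) in VF and 0.05 (adjusted p = 0.89) in E12, a change of sign. Hist1h4k measured 5.18, 3.80 and 2.80 CPM in VF, 5.39, 4.30 and 3.82 in E12 and 27.8, 10.5 and 6.56 in WT, with changes of -1.93 ± 0.57 (SE, adjusted p = 0.021) and -1.73 ± 0.57 (SE, adjusted p = 0.036). Hist1h4h measured 5.06, 3.91 and 3.57 CPM in VF, 3.83, 3.20 and 4.04 in E12 and 23.9, 11.3 and 4.49 in WT, and WT 52 lay within the range of VF. Its changes were -1.66 ± 0.58 (SE, adjusted p = 0.039) and -1.84 ± 0.58 (SE, adjusted p = 0.031). Hist1h4m and Hist1h4n differ by at most 7 counts in any library. The level was 7.09, 4.77 and 4.05 CPM in VF, 3.47, 6.32 and 3.34 in E12 and 30.4, 11.9 and 9.72 in WT for Hist1h4m, with changes of -1.71 ± 0.54 (SE, adjusted p = 0.027) and -1.98 ± 0.55 (SE, adjusted p = 0.018), while Hist1h4n had -1.68 ± 0.53 (SE, adjusted p = 0.028) and -1.98 ± 0.54 (SE, adjusted p = 0.018). The calls of Hist1h4k, Hist1h4m and Hist1h4n in VF were lost without VF 2 or VF 3 and that of Hist1h4h without any 1 VF or E12 library or without WT 50. In E12 all 4 were lost without E12 1 or E12 5, and that of Hist1h4k also without WT 50. Without WT 50 the changes of Hist1h4k, Hist1h4h and Hist1h4m were -1.27, -1.09 and -1.16 in VF and -1.08, -1.27 and -1.44 in E12. With the gene length offset none of the 4 was called, and the same genes were at -0.47, -0.16 and -0.35 in VF and -0.08, -0.17 and -0.41 in E12.

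Hist1h4d was the most abundant H4 gene and passed no test. It measured 22.8, 22.0 and 16.3 CPM in VF, 22.3, 23.0 and 30.7 in E12 and 86.9, 27.1 and 17.8 in WT, so only VF 3 lay below WT 52 and the groups overlapped. The values were -1.11 ± 0.53 (SE, adjusted p = 0.11) in VF and -0.79 ± 0.52 (SE, adjusted p = 0.25) in E12. Its share of H4 was 36.8, 44.0 and 40.2% in VF, 39.9, 41.8 and 47.0 in E12 and 29.9, 26.7 and 27.7 in WT, higher in the mutants without overlap, while the share of Hist1h4i was 19.5, 17.6 and 17.8% in VF, 24.2, 20.4 and 21.9 in E12 and 24.8, 26 and 26.6 in WT, lower in them without overlap. The other H4 genes had mean CPM over the 9 libraries of 0.542 for Hist1h4b, 6.92 for Hist1h4c, 1.71 for Hist1h4f, 2.24 for Hist2h4 and 1.51 for Hist4h4. Hist4h4, the lone gene of chromosome 6, had -2.45 ± 0.91 (SE, adjusted p = 0.05) in VF, just outside the threshold, and -2.12 ± 0.90 (SE, adjusted p = 0.085) in E12.

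Within each histone type, the weight of single genes shifted between mutants and WT. With rows that share reads counted once, 14 of 63 shares lay above WT and 13 below it in VF without overlap, and 12 above and 11 below in E12. Between E12 and VF, 8 lay above and 7 below. The shares of Hist1h1b, Hist1h2ak, Hist1h2bm, Hist1h2bj, Hist1h2bk, Hist1h3g, Hist1h3i and Hist1h4i were below WT in all 6 mutant libraries. Those of Hist1h1e, Hist1h2ae, Hist1h2ah, Hist1h2an, Hist2h2ac, Hist1h2bh, Hist2h2be, Hist1h2bq, Hist2h3b and Hist1h4d were above it in all 6. The genes above WT include the long rows Hist2h2be and Hist1h2bq, and the part of gene length in these shifts was not tested. The shares of a type sum to the whole, so a rise in 1 gene lowers the others and these counts are not independent. No share over all genes stands beside them. Some rest on few counts, such as Hist1h2ah with 9 to 29 in a library. The smallest p that an exact permutation test could give for 1 share is 0.1 in this design, and shares were not tested.

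**Figure D4:**
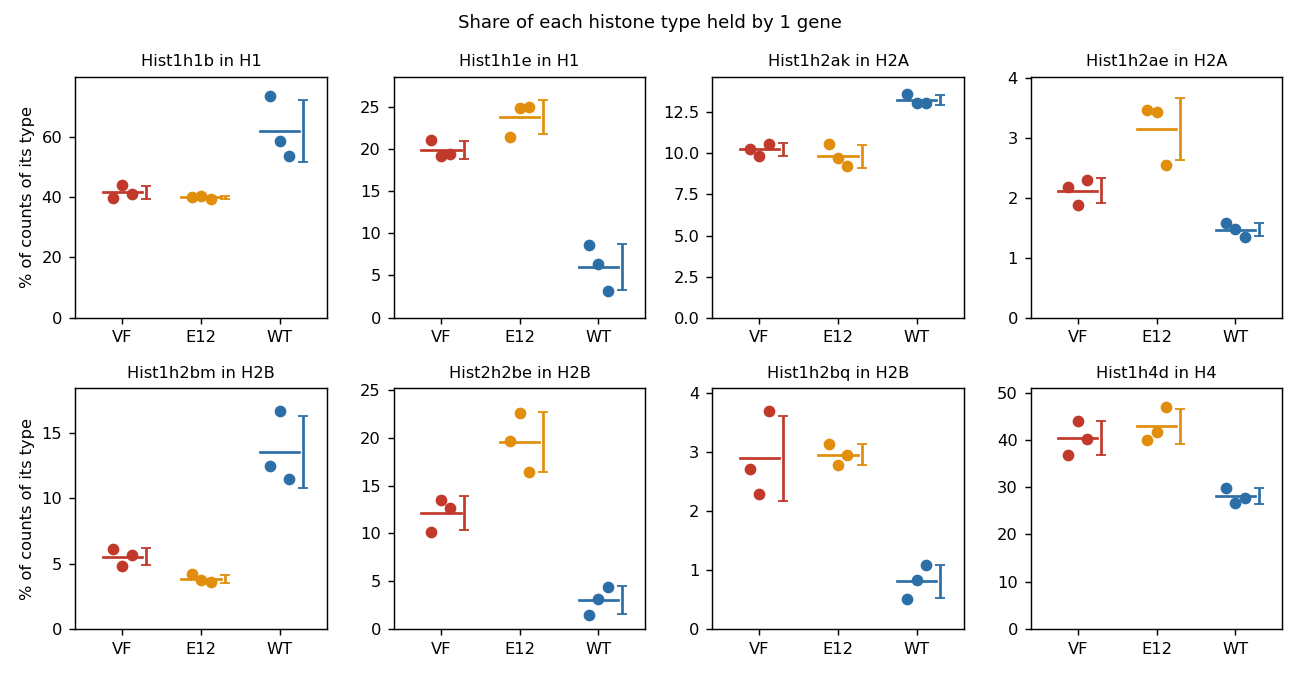
Share of the counts of its histone type (vertical axis, percent, from 0) held by each of 8 genes, with rows that share reads counted once. Points are the 3 libraries of a group, the horizontal line their mean and the bar beside it 1 SD. The 8 genes shown are all from those whose WT shares lie apart from both mutants. Of all 63 shares, 36 overlapped WT in VF and 40 in E12.

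Many H2A and H2B genes stand head to head and share the stretch between their starts. There were 13 such pairs with a gap of at most 500 bases, and 12 had both genes tested. Promoters, 250 bases before to 50 after a start, were matched for 61 of the 68 genes in the RefSeq table for GRCm38.p6, which gave 62 promoters. Motifs were searched on both strands, and none of the motifs contains another. The octamer ATTTGCAT, which POU factors bind and which is known from H2B promoters, stood in 22.6% of them against 1.7% of the 32851 promoters in the table. By type it stood in 38.9% for H2A and 41.2% for H2B, and in 0 for H1, H3 and H4. CCAAT stood in 85.5% against 37.4%, in all promoters of H1, H2A, H2B and H3 and in 25% for H4. TATAAA stood in 56.5% against 13.6%.

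The 3 regions below show a pair whose members had values of opposite sign, the pair with the highest counts and the pair with the most abundant H2B gene. They were chosen after the values were seen and are printed in the direction of the H2A gene, credited to RefSeq, with each CCAAT, each match to TATAAA and the octamer in capitals on either strand.
Hist2h2ac and Hist2h2be: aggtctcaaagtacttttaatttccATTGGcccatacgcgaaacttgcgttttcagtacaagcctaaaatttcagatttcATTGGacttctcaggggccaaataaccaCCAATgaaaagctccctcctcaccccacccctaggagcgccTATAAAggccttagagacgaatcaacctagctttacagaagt
Hist1h2ao and Hist1h2bq: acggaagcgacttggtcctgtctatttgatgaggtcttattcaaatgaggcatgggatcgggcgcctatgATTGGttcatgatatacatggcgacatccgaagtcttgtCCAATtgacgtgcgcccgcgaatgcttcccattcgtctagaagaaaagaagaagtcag
Hist1h2ac and Hist1h2bc: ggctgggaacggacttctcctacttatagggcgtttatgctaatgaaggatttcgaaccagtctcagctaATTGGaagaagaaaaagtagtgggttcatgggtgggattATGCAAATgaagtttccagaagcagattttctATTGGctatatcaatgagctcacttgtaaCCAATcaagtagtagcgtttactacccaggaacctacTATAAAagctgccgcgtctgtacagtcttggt
The first is chr3:96220881-96221071 on the minus strand with 191 bases, the second chr13:21810200-21810366 on the plus strand with 167 bases, and the third chr13:23683960-23684198 on the minus strand with 239 bases. Within the printed stretches, the third holds 1 octamer, 3 CCAAT and 1 TATAAA, the first 3 CCAAT and 1 TATAAA, and the second 2 CCAAT. The promoter of Hist2h2ac also holds an octamer, which lies just outside the printed stretch on the side of Hist2h2be. A match is a description of letters and not of binding.

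Members of a pair did not always move together. In the first pair, Hist2h2be was higher in both mutants while Hist2h2ac had -1.27 in VF and -0.82 in E12, which did not pass. Hist2h2ac measured 5.78, 3.28 and 3.37 CPM in VF, 4.22, 4.0 and 8.73 in E12 and 21.3, 5.08 and 3.57 in WT. The count ratio of Hist2h2be to Hist2h2ac was 1.66, 3.03 and 2.66 in VF, 2.39, 2.95 and 1.19 in E12 and 0.290, 0.558 and 1.01 in WT, so every mutant library was above every WT library. Hist2h2be has the poly(A) signal and a long transcript and Hist2h2ac the stem-loop. For Hist1h2bq over Hist1h2ao the ratio was 0.00663, 0.00476 and 0.0103 in VF, 0.00471, 0.00470 and 0.00364 in E12 and 0.000853, 0.00112 and 0.00151 in WT, again higher in the mutants, with rows that are uncertain on both sides. For Hist1h2bk over Hist1h2ah the ratio fell the other way, with 1.29, 1.33 and 2.11 in VF, 1.0, 1.0 and 0.818 in E12 and 4.10, 5.58 and 5.85 in WT. Hist1h2bp over Hist1h2an was likewise lower in the mutants, at 0.165, 0.111 and 0.127 in VF, 0.197, 0.129 and 0.0833 in E12 and 0.255, 0.412 and 0.376 in WT. By contrast the ratios of Hist1h2bf to Hist1h2ad overlapped in all groups, at 0.157, 0.173 and 0.162 in VF, 0.191, 0.137 and 0.0879 in E12 and 0.157, 0.171 and 0.173 in WT, and those of Hist1h2bn to Hist1h2ak were 0.0166, 0.0142 and 0.00807 in VF, 0.00671, 0.00773 and 0.0100 in E12 and 0.00901, 0.00670 and 0.00906 in WT. In the third pair, Hist1h2bc over Hist1h2ac was 1.30, 0.960 and 1.35 in VF, 0.669, 0.642 and 0.594 in E12 and 0.822, 0.427 and 0.660 in WT, higher in VF than in both other groups. These ratios were not tested.

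**Figure D5:**
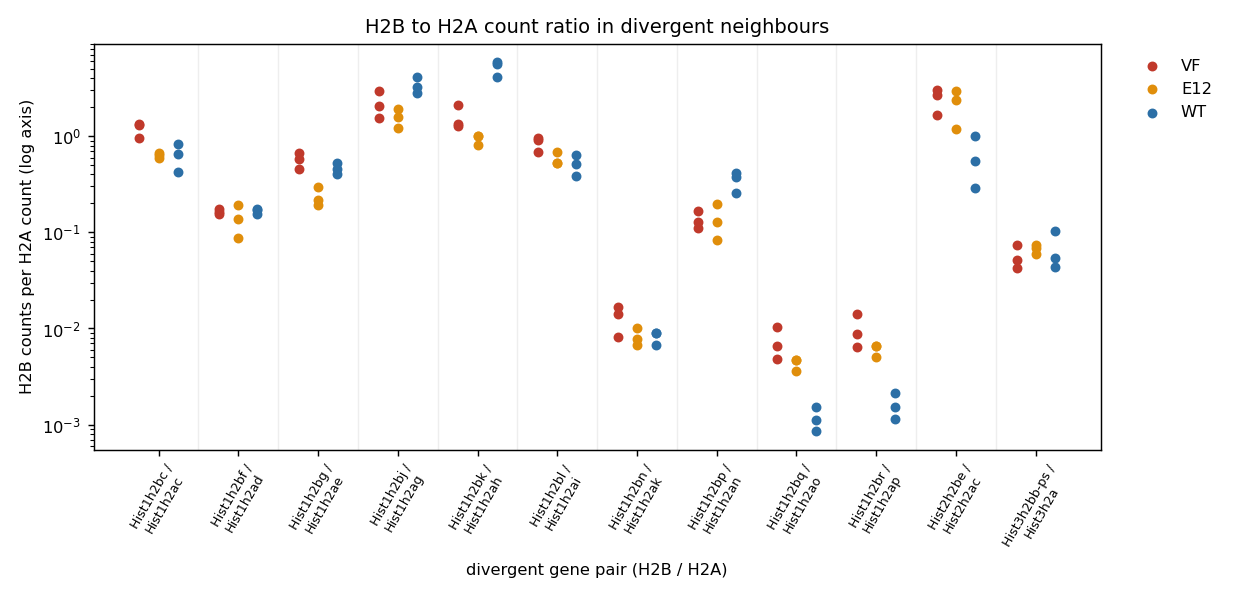
Count of the H2B gene per count of the H2A gene (vertical log axis) in 12 head-to-head pairs, with 1 point per library coloured by group. The ratio of Hist2h2be to Hist2h2ac lies between 1.19 and 3.03 in the mutants and between 0.290 and 1.01 in WT, whereas that of Hist1h2bk to Hist1h2ah is higher in WT.

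None of the clustered histone genes was called between E12 and VF, taken at 6 and 12 weeks. The types differed in direction, with a median of -0.45 for H2B, 0.25 for H3, 0.17 for H2A, 0.12 for H4 and 0.06 for H1. Summed H2B CPM without scaling were 123, 94.6 and 93.6 in VF and 57.4, 64.0 and 73.7 in E12, and with scaling 97.2, 75.2 and 73.1 against 52.7, 53.8 and 65.1, without overlap on both scales. Hist1h2bc made up most of that gap. The H3 sums over all rows went the other way, with the E12 libraries above the VF libraries on both scales, at 87.8, 106 and 108 against 86.0, 85.7 and 66.8 without scaling. With rows that share reads counted once, E12 1 at 49.4 lay below VF 1 and VF 2 without scaling, so the mutants overlapped there. With scaling they stayed apart in these H3 sums, at 45.4 to 55.6 in E12 against 29.7 to 40.5 in VF. The mutants overlapped in the H2A, H4 and H1 sums. The spread is wide beside such differences, as with Hist1h2ao, whose value between E12 and VF was 0.23 ± 0.54 (SE, adjusted p = 0.87). In fits of only the VF and E12 libraries, 3 genes were higher and 2 lower in E12 of 62 tested, with the gene length offset 1 was higher and 0 lower, and without WT 50 1 was lower. The shares of all genes called in these fits are not given here, so nothing is read from these counts.

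Other genes of histone supply were read as 4 lists from the same fit, with no test of a list. Of all genes, 20.9% were lower and 27.7% higher in VF, and 18.1% and 23.9% in E12. Genes over 5 kb held 14.2% to 16.3% of counts in the mutant libraries and 4.37% to 7.92% in WT. Values with the gene length offset or without WT 50 are not given for these lists, and the part of gene length in them was not tested. Of 11 replication-independent histone genes, 2 were higher and 5 lower in VF, with a median of -1.0, and 2 higher and 6 lower in E12, with -0.88. H2afz, a variant found at promoters, measured 346, 359 and 298 CPM in VF, 425, 371 and 401 in E12 and 3440, 1120 and 974 in WT, with changes of -2.46 ± 0.49 (SE, adjusted p = 0.0038) and -2.21 ± 0.48 (SE, adjusted p = 0.0077). Cenpa, the H3 variant of centromeres, changed by -2.89 ± 0.42 (SE, adjusted p = 0.00098) and -1.91 ± 0.40 (SE, adjusted p = 0.007). H2afv changed by -1.82 ± 0.56 (SE, adjusted p = 0.024) in VF and -2.87 ± 0.58 (SE, adjusted p = 0.0061) in E12. H2afx, marked at DNA breaks, had -0.55 ± 0.23 (SE, adjusted p = 0.077) in VF and -0.66 ± 0.23 (SE, adjusted p = 0.046) in E12. H3f3a, encoding H3.3, had -1.0 ± 0.44 (SE, adjusted p = 0.087) and -0.88 ± 0.44 (SE, adjusted p = 0.13), and H3f3b, which encodes the same protein, fell with -1.31 ± 0.43 (SE, adjusted p = 0.033) and -1.35 ± 0.44 (SE, adjusted p = 0.034). So some genes outside the clusters were lower against WT too, and H1f0 was higher, together with H1fx, which is at a mean of under 1 CPM in every group. In the comparison of E12 with VF 1 gene of the list was lower, H1f0, and 0 were higher.

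Of 14 genes for histone mRNA processing and its control, 1 was higher and 2 lower in VF, with a median of 0.29, and 6 higher and 1 lower in E12, with 0.47. Slbp, which binds the stem-loop, measured 254, 268 and 264 CPM in VF, 423, 350 and 426 in E12 and 226, 897 and 825 in WT, with WT 50 the lowest of all libraries and WT 51 and 52 the highest. Its change was -1.31 ± 0.45 (SE, adjusted p = 0.038) in VF and -0.70 ± 0.45 (SE, adjusted p = 0.23) in E12. WT 50, which had the most clustered histone counts, thus had the least Slbp. Npat, the coactivator of histone genes at S phase entry and a long gene of 7347 bases, was higher in both. It measured 44.6, 51.5 and 48.3 CPM in VF, 64.8, 58.7 and 69.9 in E12 and 15, 8.19 and 25.4 in WT. Its changes were 1.57 ± 0.37 (SE, adjusted p = 0.0078) and 1.99 ± 0.37 (SE, adjusted p = 0.0048). Casp8ap2, a partner of histone gene transcription, had -0.06 ± 0.23 (SE, adjusted p = 0.84) and 0.18 ± 0.23 (SE, adjusted p = 0.55). Lsm10, a short gene of the U7 particle that cuts histone pre-mRNA, fell with -2.42 ± 0.56 (SE, adjusted p = 0.0075) and -3.02 ± 0.58 (SE, adjusted p = 0.005), and Ncbp1, of the cap-binding complex, changed by 1.05 ± 0.31 (SE, adjusted p = 0.022) in E12. Between E12 and VF 0 of 14 passed by edgeR, with 1 at an unadjusted p under 0.05, and the smallest p were those of Ncbp1 at 0.89, Sympk at 0.74 and Cpsf2 at 0.62.

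Of 13 histone chaperone genes, 0 were higher and 3 lower in VF, with a median of -0.40, and 1 higher and 1 lower in E12, with 0.07. Asf1b, which hands H3 and H4 to the assembly machinery, fell in both, with 175, 179 and 163 CPM in VF, 249, 186 and 224 in E12 and 714, 638 and 596 in WT. Its changes were -1.91 ± 0.24 (SE, adjusted p = 0.00054) and -1.56 ± 0.23 (SE, adjusted p = 0.0021). Nasp, which holds soluble H3 and H4, fell in VF with -1.82 ± 0.21 (SE, adjusted p = 0.00043) and was higher in E12 than in VF by 1.35 ± 0.21 (SE, adjusted p = 0.015). It measured 63.5, 64.0 and 56.4 CPM in VF, 158, 154 and 157 in E12 and 214, 248 and 189 in WT. Hat1, which acetylates new H4, changed by -1.18 ± 0.34 (SE, adjusted p = 0.019) in VF, and Chaf1a, of the assembly factor CAF-1, by 0.69 ± 0.20 (SE, adjusted p = 0.024) in E12. In E12 Ipo4 had 0.56 ± 0.24 (SE, adjusted p = 0.086), and between E12 and VF Chaf1a had 0.77 ± 0.20 (SE, adjusted p = 0.081) and Supt16 0.81 ± 0.24 (SE, adjusted p = 0.11).

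Of 22 S phase genes, 0 were higher and 9 lower in VF, with a median of -0.73, and 2 higher and 5 lower in E12, with 0.09. Pcna, the replication clamp, measured 181, 187 and 172 CPM in VF, 242, 223 and 272 in E12 and 1220, 740 and 568 in WT, with changes of -2.23 ± 0.32 (SE, adjusted p = 0.00098) and -1.78 ± 0.32 (SE, adjusted p = 0.0039). Tyms changed by -2.84 ± 0.50 (SE, adjusted p = 0.0024) and -2.58 ± 0.50 (SE, adjusted p = 0.0052) and Gins1 by -2.44 ± 0.50 (SE, adjusted p = 0.0064) in E12. Between E12 and VF 2 were higher and 0 lower, with a median of 0.59. They were Ccne1, encoding cyclin E1, at 3.10 ± 0.43 (SE, adjusted p = 0.011), and Ccna2, encoding cyclin A2, at 1.33 ± 0.28 (SE, adjusted p = 0.042), and Rrm2 had 1.68 ± 0.42 (SE, adjusted p = 0.068). Ccne1 measured 27.1, 38.1 and 30.9 CPM in VF, 301, 240 and 282 in E12 and 54.1, 65.2 and 163 in WT, and the E12 libraries lay above all others. The clustered histone genes had a median of 0.09 in that comparison, as given above.

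The 5 genes that failed the filter were Hist1h2aa and Hist1h2ba, the testis forms, with at most 23 and 4 counts in a library, Hist1h3b with 52, Hist1h4a with 6 and Hist1h4j with 9. For Hist1h3b the highest library was WT 50. Hist1h2aa had 4 to 5 counts in E12 and 7 to 23 in WT. The WT libraries hold 33838681 to 39736096 counts in total against 20328414 to 23499914 in E12, so no difference is read from these few counts. These genes were not tested in the main fit.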

How the data were processed

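Per the labels' protocols, RNA of the sorted cells was extracted with a PicoPure kit and libraries were made with Smart-Seq2, which has no strand and no molecular identifiers. Reads of a gene and its antisense partner cannot then be told apart. The authors deposited whole-number counts for 17769 genes with a gene length, and log2 expression levels, which served only as an alternative. The submitters' processing notes name STAR, limma and the builds GRCm38 and mm10. Which program counted the reads, and on which annotation, is not given in the sources used here.

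Deposited counts went unchanged into edgeR 4.0.16 (R 4.3.3), with filterByExpr, TMM factors, all 9 libraries in 1 quasi-likelihood fit and the group as its term. All p-values are two-sided, with Benjamini-Hochberg adjustment across the 13608 genes tested, and calls are at 0.05. CPM use the TMM factors. Histone type was read from the symbol. The members and lists were chosen with earlier results of these data known. Named are all members tested, and of each list the 3 genes with the smallest p per comparison with 8 genes always given, and 1 gene so chosen is not reported here. Rows whose counts differed by under 5% in every library, or whose length was 2 times the RefSeq span, were taken as sharing reads. All 68 members matched RefSeq by Entrez identifier and GENCODE M21 transcripts by symbol. Alternatives were RLE factors, other filters, a gene length offset (loess, span 0.5), DESeq2 1.42.0, limma 3.58.1 with voom or on the deposited levels, fits of 2 groups, a replicate block, and each library left out. Scaling by library totals and counting rows that share reads once were added after the data were seen. The fit was tested on simulated counts. Figures were drawn with matplotlib 3.10.9.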

Additional observations from a re-analysis of the deposited data

How the results depend on the processing

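The number of clustered histone genes called lower in VF against WT, 18 in the main fit, was 2 without scaling factors, 6 with the gene length offset, 7 with only the 2 groups, 35 with DESeq2 and 51 with limma on the deposited levels, and 3 to 41 with 1 library left out. In E12 against WT, 19 in the main fit, it was 5 without scaling factors, 2 with the gene length offset, 4 with only the 2 groups, 33 with DESeq2, 12 with limma-voom and 40 on the deposited levels, and 3 to 40 with 1 library left out. The number called higher, 1 in both, was 0 in both with RLE factors, without the filter, on the deposited levels and with only the 2 groups. It was 6 in VF and 4 in E12 without scaling factors, 0 in VF and 6 in E12 with the gene length offset, and 0 to 1 in VF and 0 to 4 in E12 with 1 library left out. In E12 against VF, with 0 in the main fit, 3 were higher and 2 lower with only the 2 groups, 1 was higher with the gene length offset, and 0 to 1 were lower with 1 library left out. Replicate numbers 1 and 2 occur in both VF and E12. Deviations from the group means correlated at 0.01 and 0.103 for these pairs. For VF 1 with E12 2 and VF 2 with E12 1 they correlated at 0.017 and 0.132. The labels do not say whether equal numbers mark a pair, and these values cannot decide it. With the number as a replicate block 0 were higher and 2 lower. Shares of all genes called are not given for these alternatives. The counts therefore do not show whether the family differed from other genes there. Of 342 alternatives for the 19 genes called in VF, 235 kept direction and call and 107 lost the call. Of 360 for the 20 genes called in E12, 214 kept both, 145 lost the call and 1 turned, that of Hist1h4i with the gene length offset (0.05). The cause was not tested. Counting rows that share reads once left 16 lower and 1 higher of 58 in VF and 17 lower and 1 higher in E12. The filter left 5 genes of few counts out of the main fit.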
